A study of Homo sapiens with 18 samples.

Results

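The comparison set 2 stable HEK293T populations against each other 4 weeks on, one carrying an inducible AF4-MLL construct (AF4-MLL cells) and one an inducible MLL-AF4 construct (MLL-AF4 cells). It rests on the 6 libraries that the labels place on day 28 with a single fusion, 3 per construct, of 18 libraries in all. HEK293T is a human embryonic kidney line with neural features. Both constructs were carried in Sleeping Beauty vectors with a doxycycline-controlled promoter, and both populations received doxycycline at 1 µg/ml for 48 h at the start. The question asked of the pair is how alike the populations of the 2 reciprocal fusions were at that time, and what still separated them. Single-fusion libraries of day 3 (3 per construct) and cells with both fusions, MLL-AF4 from a constitutive and AF4-MLL from an inducible vector (co-expression cells, 3 libraries on day 28), serve only as reference values. No uninduced or mock libraries are used here, and the sources do not say whether a population descends from 1 clone. The study calls its replicates biological but does not say whether they were grown as separate cultures, so p-values measure the spread between these libraries.

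MLL is the gene KMT2A, a methyltransferase of lysine 4 on histone H3 that holds HOX genes active, and AF4 is the gene AFF1, a scaffold of the super elongation complex that releases paused RNA polymerase II. The chromosomal translocation t(4;11) of acute leukaemia joins them both ways: MLL-AF4 keeps the front part of MLL with the rear part of AF4, and AF4-MLL keeps the front part of AF4 with the rear part of MLL, including its methyltransferase domain. In ATAC-seq a transposase cuts accessible DNA, so a gene collects more reads where its DNA is open, and also where a cell holds more copies of it. The reads carry no information on strand, and genes that overlap share them.

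Each library held between 1543372 and 2943823 counts, of which mitochondrial genes took 63.64% to 67.96% and nuclear genes between 554344 and 943248 counts. It averaged 65.3% ± 2.4 (SD, n = 3) for AF4-MLL and 65% ± 0.83 for MLL-AF4 cells, a difference of 0.22 percentage points that lay within the spread between libraries (exact two-sided permutation test, p = 0.9, with 0.1 as the smallest p that 3 against 3 libraries can give). Leaving out 1 library moved it to between −1.13 (without replicate 2 of AF4-MLL cells) and 1.02 (without its replicate 3), and it was also below 0 without replicate 3 of MLL-AF4 cells (−0.254). The median over tested genes was 25 counts in a library, so precision was set mainly by depth. The 9 kidney and neural markers of the line were counted in every group, with a summed level of 234 to 273 CPM (normalised read counts, scaled to a common library size with TMM factors) in AF4-MLL cells and 245 to 252 in MLL-AF4 cells. The 8 blood markers summed to 62.4 to 67 and 56 to 66.2 CPM, with single genes between 0.265 and 18.5 CPM and none at 0 in all 6 libraries.

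Few genes passed the test described below, and the promoters of 4 of them are shown as examples, since the base composition of promoters is taken up later. They are not the 4 firmest results: KIAA1958 was called in 5 of 14 alternative settings and VPS13A in 3 of 15. Each sequence runs 5′ to 3′ over 300 bases, from 250 bases before to 50 bases after a RefSeq transcript start in build GRCh38.p14, with every CG pair in capitals. For UBTF the start used is 1 of 2 that RefSeq gives, and it lies inside the gene's span rather than at its outer end. KMT2A (chr11:118436242-118436541, plus strand) was higher in AF4-MLL cells, UBTF (chr17:44220833-44221132, minus strand) was lower, and KIAA1958 (chr9:112486577-112486876, plus strand) and VPS13A (chr9:77177284-77177583, plus strand) lie in the long stretch of chromosome 9 that was higher.
KMT2A: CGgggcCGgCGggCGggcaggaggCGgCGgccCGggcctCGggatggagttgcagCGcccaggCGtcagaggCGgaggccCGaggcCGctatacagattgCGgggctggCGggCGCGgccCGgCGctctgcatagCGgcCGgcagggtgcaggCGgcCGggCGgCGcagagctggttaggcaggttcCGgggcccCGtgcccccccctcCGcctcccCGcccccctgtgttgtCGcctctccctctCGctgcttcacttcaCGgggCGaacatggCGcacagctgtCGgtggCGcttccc
UBTF: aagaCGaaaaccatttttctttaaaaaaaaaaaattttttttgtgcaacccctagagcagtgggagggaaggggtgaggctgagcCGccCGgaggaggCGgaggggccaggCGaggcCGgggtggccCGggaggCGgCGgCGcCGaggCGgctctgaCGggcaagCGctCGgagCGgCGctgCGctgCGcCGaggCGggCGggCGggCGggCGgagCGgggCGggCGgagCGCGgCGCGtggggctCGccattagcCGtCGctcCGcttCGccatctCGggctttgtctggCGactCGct
KIAA1958: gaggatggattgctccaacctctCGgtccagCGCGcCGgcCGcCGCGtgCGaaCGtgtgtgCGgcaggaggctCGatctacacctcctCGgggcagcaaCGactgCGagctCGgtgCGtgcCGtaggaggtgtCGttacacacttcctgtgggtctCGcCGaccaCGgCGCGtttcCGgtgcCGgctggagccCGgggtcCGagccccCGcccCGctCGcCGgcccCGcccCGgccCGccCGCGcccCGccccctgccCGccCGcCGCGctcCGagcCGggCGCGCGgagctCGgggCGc
VPS13A: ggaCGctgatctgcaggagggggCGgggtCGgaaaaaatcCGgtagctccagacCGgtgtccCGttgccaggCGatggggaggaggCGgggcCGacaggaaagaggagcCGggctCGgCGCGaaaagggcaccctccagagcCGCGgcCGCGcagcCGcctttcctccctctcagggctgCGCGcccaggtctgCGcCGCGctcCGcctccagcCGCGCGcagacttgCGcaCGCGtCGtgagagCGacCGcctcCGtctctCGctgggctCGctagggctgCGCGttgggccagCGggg

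The 4 windows are rich in CG pairs. They held 36 in KMT2A, 40 in UBTF, 48 in KIAA1958 and 39 in VPS13A, against a median of 14 over 35116 promoters of the same length. As many pairs or more occurred in 12.7%, 7.61%, 1.98% and 8.71% of those promoters. The GC box, spelled GGGCGG or CCGCCC on the other strand, matched 3 times in the KMT2A window, 7 times in that of UBTF, 5 times in that of KIAA1958 and once in that of VPS13A. At least 1 match occurred in 45% of all promoters. The 4 genes were picked from 7 called genes with a promoter sequence, and promoters of tested genes were not set apart. Whether CG content marks the called genes was not tested.

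How alike the populations were can be read from the sizes of the differences and their intervals. Of 17660 genes with enough counts to be tested, 14 passed the edgeR quasi-likelihood test at a Benjamini-Hochberg adjusted p under 0.05 (0.0793% of those tested), with 9 higher (0.051%) and 5 lower (0.0283%) in AF4-MLL cells. With library size as the only scaling the split was 2 higher and 0 lower, with 939 genes at an unadjusted p under 0.05 against 1459 (8.26%) under TMM. The middle of the distribution was narrow: the median log2 difference was 0, the quartiles were −0.19 and 0.18, and 104 genes differed by more than 1 on the log2 scale in either direction. A missed threshold does not show likeness, so each gene's 95% interval was set against a 2-fold bound. The whole interval lay within 2-fold for 14392 genes (81.5%), and within 1.5-fold for 5868 (33.2%).

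The share rose with depth. Among the 338 genes with a mean above 100 counts, 99.4% were bounded within 2-fold and 95.9% within 1.5-fold. Between 30 and 100 counts the share within 2-fold was 99% of 6720 genes, between 10 and 30 counts 78.3% of 8981, and under 10 counts 22.9% of 1621. For the remaining genes a difference of 2-fold was not resolved at this depth.

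Distances between whole libraries were also taken. After thinning all libraries to 284374 nuclear counts, the root mean square log2 distance over 6053 genes was 0.439 to 0.446 between libraries of AF4-MLL cells and 0.432 to 0.439 between libraries of MLL-AF4 cells. The 9 pairs across the constructs lay at 0.453 to 0.467, above all 6 pairs within a construct but by a small step. The corresponding pairs of day 3 lay at 0.46 to 0.473. Against co-expression cells of day 28, the distances were 0.467 to 0.48 for AF4-MLL cells and 0.46 to 0.472 for MLL-AF4 cells. MLL-AF4 cells of day 28 lay at 0.495 to 0.515 from their own day 3 libraries, and AF4-MLL cells at 0.456 to 0.467 from theirs. No test was run on these distances, since pairs share libraries. Replicates of day 28 differed only a little beyond sampling noise, with a chi-square per degree of freedom of 1.05 to 1.23 before thinning. Sampling noise thus makes up much of every distance, and the small step does not bound how far the populations differ.

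**Figure D1:**
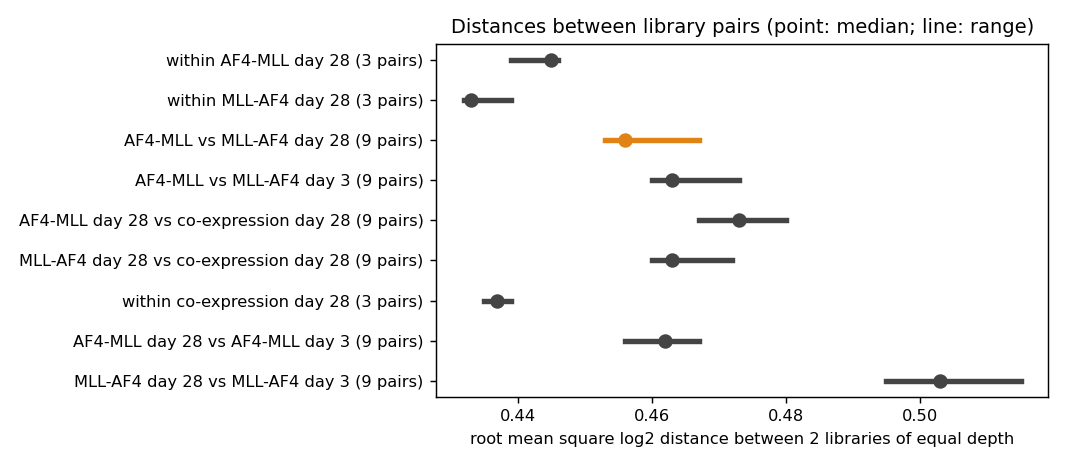
Root mean square log2 distance (x axis) between pairs of libraries thinned to equal depth, one row per kind of pair, with the median as a point and the range as a line. Pairs of AF4-MLL with MLL-AF4 libraries on day 28 (orange) spanned 0.453 to 0.467, just above the pairs within each construct.

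The source genes of the constructs came out unequal. KMT2A (ENSG00000118058, chr11:118436492-118526832, overlapped by TTC36-AS1) had 99, 100 and 83 CPM in the 3 libraries of AF4-MLL cells and 47.0, 43.5 and 45.6 CPM in those of MLL-AF4 cells. Every AF4-MLL library was well above every MLL-AF4 library. The means were 94.0 ± 9.5 and 45.4 ± 1.7 CPM (SD, n = 3), a log2 difference of 1.06 (SE 0.13, edgeR adjusted p = 7.5e-10), and the co-expression libraries had 59.8 to 79.9 CPM. On day 3 the log2 difference was 1.39, and the change of 1.39 to 1.06 did not pass the interaction test (adjusted p = 0.67).

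AFF1 (ENSG00000172493, chr4:86935011-87141039, overlapped by C4orf36, TECRP1 and LOC105377320) had 46.2, 50.3 and 60 CPM in AF4-MLL cells and 40.4, 53.0 and 58.2 CPM in MLL-AF4 cells. The groups overlapped fully, and the log2 difference was 0.04 with a 95% interval of −0.25 to 0.32 (adjusted p = 0.98). Both constructs were assembled from parts of the KMT2A and AFF1 coding sequences, and the table holds 1 count per gene, so reads from a construct and reads from the resident gene cannot be told apart. MIF, a secreted cytokine, had 50.8, 37.0 and 38.4 against 47.0, 48.5 and 42.1 CPM, and its log2 difference of −0.14 had an interval of −0.45 to 0.17.

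AC010619.2 (ENSG00000273189) stood beside KMT2A as the other gene that was called in each of 15 alternative settings. It had 217, 192 and 215 CPM in AF4-MLL cells and 105, 92.0 and 89.5 CPM in MLL-AF4 cells, so the groups lay far apart. The log2 difference was 1.12 (SE 0.11, adjusted p = 1.7e-16), after 1.00 on day 3, and the 3 co-expression libraries had 132 to 154 CPM, between the single fusions.

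The other 7 genes that were higher in AF4-MLL cells were called less firmly. Of these, 4 lie on chromosome 9. KIAA1958 (chr9:112486827-112669397, overlapped by HSDL2-AS1), a gene with no well-known role, had 24.7, 22.1 and 25.8 CPM against 9.89, 10.6 and 11.6 CPM. Its level in AF4-MLL cells was more than that of any other single-fusion or day 28 co-expression library, where it ran from 7.61 to 14.5 CPM. The log2 difference was 1.17 (SE 0.26, adjusted p = 0.024), but leaving out any 1 of the 6 libraries ended the call while the difference stayed between 1.12 and 1.24.

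VPS13A (chr9:77177534-77421537, overlapped by VPS13A-AS1), a lipid transfer protein of membrane contact sites, had 64.5, 63.0 and 51.6 CPM against 40.4, 40.2 and 34.0 CPM (log2 0.64, adjusted p = 0.048). ZER1 (chr9:128729786-128772486), a substrate receptor of a cullin ubiquitin ligase, had 46.9, 41.4 and 37.0 against 20.6, 22.9 and 29.5 CPM (log2 0.80, adjusted p = 0.028). CFAP157 (chr9:127706988-127716002), a protein of motile cilia, had 54.7, 53.6 and 56.5 against 42.9, 30.7 and 32.2 CPM (log2 0.66, adjusted p = 0.048). In all 3 genes the lowest AF4-MLL library was above the highest MLL-AF4 library.

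BORA (chr13:72727923-72756196, overlapped by DIS3), a cofactor that activates Aurora A kinase before mitosis, had 72.3, 60.2 and 79.5 CPM against 56.0, 43.0 and 36.7 CPM (log2 0.63, adjusted p = 0.028). STEAP2 (chr7:90211740-90243408), a metalloreductase, had 32.6, 51.9 and 27.9 CPM against 16.5, 24.0 and 21.5 CPM. Its second AF4-MLL library was the high one, and the log2 difference of 0.86 (SE 0.20, adjusted p = 0.028) ran from 0.53 to 1.02 as single libraries were left out. LINC01273 (chr20:50172570-50176671), a long noncoding RNA gene, held 11, 15 and 13 counts against 5, 1 and 1, so its log2 difference of 2.20 (SE 0.53, adjusted p = 0.048) rests on few reads. It was called in 1 of 14 alternative settings, with values from 1.63 to 3.4.

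The lower genes numbered 5, and 3 of them are copies of the ribosomal repeat, described with their group below. UBTF (ENSG00000108312, chr17:44205040-44221304, overlapped by ATXN7L3-AS1 and MIR6782) encodes the factor that binds the ribosomal repeat for RNA polymerase I. It had 46.2, 50.8 and 53.7 CPM in AF4-MLL cells and 70.9, 82.0 and 77.9 CPM in MLL-AF4 cells, with no overlap. The log2 difference was −0.62 (SE 0.14, adjusted p = 0.023). Co-expression cells had 51.2 to 56.0 CPM, overlapping the range of AF4-MLL cells and below every MLL-AF4 library. On day 3 the means of the single fusions were 51.9 and 50 CPM.

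HOXB6 (ENSG00000108511, chr17:48595751-48604986, overlapped by HOXB-AS3), a homeobox gene of the HOXB cluster, had 32.6, 30.9 and 34.2 CPM in AF4-MLL cells and 49.4, 54.7 and 55.5 CPM in MLL-AF4 cells. The libraries of each group were close together and the groups far apart. The log2 difference was −0.72 (SE 0.16, adjusted p = 0.024), whereas on day 3 it was 0.33, and the change of −1.04 between the days passed the interaction test (adjusted p = 0.025).

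**Figure D2:**
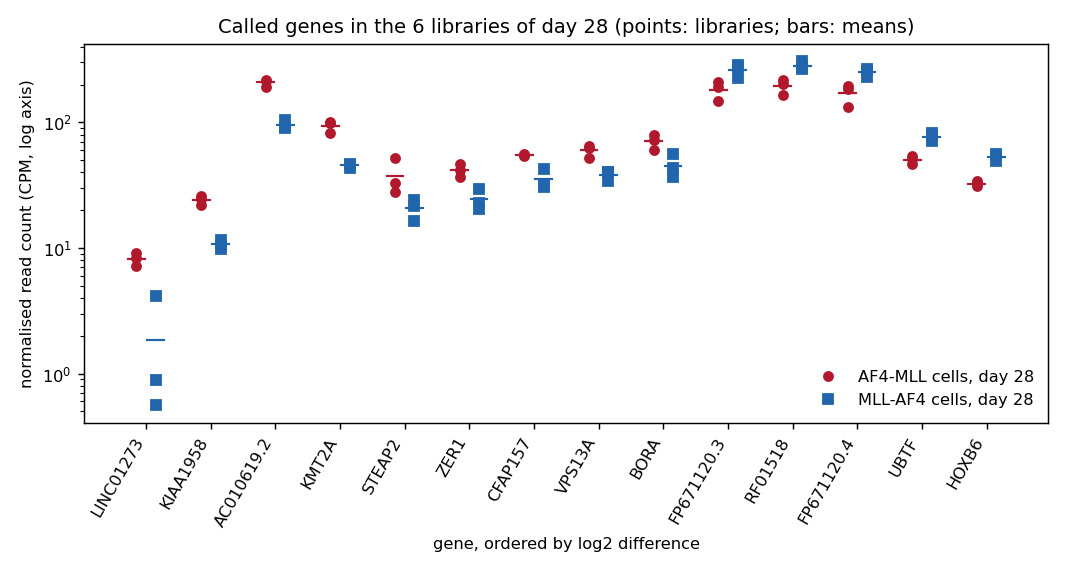
Normalised read count (CPM, log axis) of the 14 called genes in each of the 6 libraries of day 28, with AF4-MLL cells as circles, MLL-AF4 cells as squares and means as bars. The groups do not overlap for any of the 14, and LINC01273 stands out by its low and spread MLL-AF4 libraries.

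In all 14 genes the groups did not overlap, which was also true of 13.4% of all genes tested (6.95% higher and 6.43% lower in AF4-MLL cells). Apart from KMT2A and AC010619.2, no call held when each of the 6 libraries was left out in turn, although the direction was kept in every such fit. All 12 were lost without replicate 3 of MLL-AF4 cells, and all but the 3 ribosomal copies without its replicate 2. Without replicate 1 of MLL-AF4 cells the calls of KIAA1958, STEAP2, ZER1, VPS13A, FP671120.3 and FP671120.4 were lost. Without replicate 1 of AF4-MLL cells all but STEAP2 and the ribosomal copies were lost, and without its replicate 2 all but BORA and FP671120.4. Without its replicate 3 the calls of UBTF, STEAP2, ZER1 and VPS13A were kept. Over these fits the log2 difference ran from −0.68 to −0.56 for UBTF, from −0.76 to −0.67 for HOXB6, from 0.53 to 0.79 for BORA, from 0.71 to 0.93 for ZER1, from 0.57 to 0.72 for VPS13A and from 0.54 to 0.80 for CFAP157. RF01518 and FP671120.4 were called in 10 of 15 alternative settings, UBTF, BORA, STEAP2 and FP671120.3 in 8, HOXB6 and ZER1 in 7, VPS13A in 3 and CFAP157 in 2 of 15, and KIAA1958 in 5 of 14.

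Genes just short of the threshold repeated some of these locations. C9orf43 (log2 0.86, adjusted p = 0.060) and MAPKAP1, a subunit of the kinase complex mTORC2 (log2 0.78, adjusted p = 0.073), lie on chromosome 9, and EDNRB, an endothelin receptor (33.9, 30.9 and 34.2 against 19, 22.3 and 14.3 CPM), on chromosome 13 as BORA does. ATG9A, the lipid scramblase of autophagy, had 42.3, 43.1 and 43.9 against 27.2, 27.3 and 24.2 CPM (log2 0.70, adjusted p = 0.11). On the lower side stood AC073842.2 (log2 −1.28), KAZN (−0.83), BORCS6 (−0.60) and, on chromosome 10, WAC, an adaptor of histone H2B ubiquitination (−0.63, adjusted p = 0.080).

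Ribosomal repeat copies had lower counts in AF4-MLL cells. The list was gathered by gene name, for 5.8S ribosomal RNA and for transcripts and microRNAs of the same repeated unit. Of 30 entries, 18 had enough counts to be tested. All 18 had a negative log2 difference, 14 at an unadjusted p under 0.05 (all lower, where 3.88% of all tested genes were), and 3 were called. The median was −0.51, beside 0 over all genes tested, and it stayed between −0.54 and −0.40 under every alternative run. The summed level was 1320 to 1550 CPM in the 3 AF4-MLL libraries and 1840 to 2060 CPM in the 3 MLL-AF4 libraries. Apart from MIR663AHG, whose place in the unit was not checked, these entries are named as parts of the same repeated unit, several of them as copies of the same part. How reads that match several copies were counted is not given, and sharing of reads between the entries was not tested. The entries were therefore not taken as independent. They count as one observation rather than 18.

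The called copies were RF01518, which merges 9 identifiers, FP671120.4 and FP671120.3. RF01518 had 217, 203 and 165 CPM against 274, 268 and 307 CPM (log2 −0.53, adjusted p = 0.013). FP671120.4 had 195, 185 and 133 against 264, 231 and 261 CPM (log2 −0.55, adjusted p = 0.013), and FP671120.3 had 208, 192 and 148 against 286, 225 and 277 CPM (log2 −0.51, adjusted p = 0.028). In each of them the third AF4-MLL library was the lowest of the 6.

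The 5.8S genes themselves were not called. RNA5-8SN1 had 43.0, 29.8 and 35.6 against 59.3, 49.1 and 55.5 CPM (log2 −0.59, unadjusted p = 0.00025, adjusted p = 0.16), and RNA5-8SN4, which merges 5 identifiers, had 193, 195 and 202 against 288, 209 and 243 CPM (log2 −0.32). Both sets of libraries were separate, by a narrow margin for RNA5-8SN4. MicroRNA genes of the unit had few counts and larger, less certain values: MIR6724-1 had 5.21, 11.0 and 11.9 CPM against 17.3, 20.6 and 23.3 CPM (log2 −1.11, adjusted p = 0.16). MIR6724-3 followed at −0.90, MIR3648-2 at −0.70 and MIR6724-4 at −0.69, while MIR663AHG, taken into the list by its name, was at −0.09. The MIR6724 genes are an example of copies of the same part. RefSeq gives the entries MIR6724-2 and MIR6724-4 the same 92 bases of hairpin and the same mature sequence of 23 bases, with the seed (bases 2 to 8) in capitals.
hsa-miR-6724-5p: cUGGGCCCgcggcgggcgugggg

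On day 3 the ribosomal copies lay on the other side. Their median log2 difference was 0.50 there, 16 of 18 were above 0, and for 7 of 18 the change between the days passed the interaction test (0.317% of all genes tested did). FP671120.4 went from 0.59 to −0.55 and RNA5-8SN4 from 0.54 to −0.32.

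HOX genes, the classical targets of MLL, are given by cluster, with no test between clusters. Over the 35 tested genes of the 4 clusters the median log2 difference was −0.10, 1 was called (HOXB6) and 6 were at an unadjusted p under 0.05, all lower (3.88% of all genes tested were lower at that threshold). The median moved to −0.03 without replicate 3 of AF4-MLL cells and to −0.06 without replicate 2 of either construct. Of these 6 genes, 5 belong to the HOXB cluster on chromosome 17. All 9 tested HOXB genes were below 0, with a median of −0.37 and a range of −0.72 to −0.07. HOXB5 had 20.2, 22.1 and 16.7 against 34.6, 35.7 and 24.2 CPM (log2 −0.69), HOXB7 had 10.4, 11.6 and 9.77 against 20.6, 17.9 and 13.4 CPM (−0.71), and HOXB8 had 34.5, 28.2 and 33.5 against 43.7, 53.6 and 38.5 CPM (−0.54). HOXB4, at 40.4, 29.8 and 37.7 against 31.3, 35.7 and 46.5 CPM, overlapped between the groups (−0.07). On day 3, 8 of the 9 were above 0 with a median of 0.48.

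The HOXA cluster, in which the leukaemia-associated HOXA9 and HOXA10 lie, had values near 0. Of 11 tested HOXA genes, none was at an unadjusted p under 0.05 and the median was −0.05. HOXA9 had 41.0, 41.4 and 31.4 against 42.9, 34.6 and 34.9 CPM, and HOXA10 had 70.3, 52.5 and 56.5 against 57.7, 61.4 and 57.3 CPM, with log2 differences of 0.04 and 0.01. The medians of the 9 HOXC and 6 HOXD genes were 0.02 and 0.07, and HOXD9 was the 1 gene there at an unadjusted p under 0.05 (log2 −0.66, adjusted p = 0.44). The HOXB genes lie on a chromosome whose counts were lower along most of its length, as described below.

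**Figure D3:**
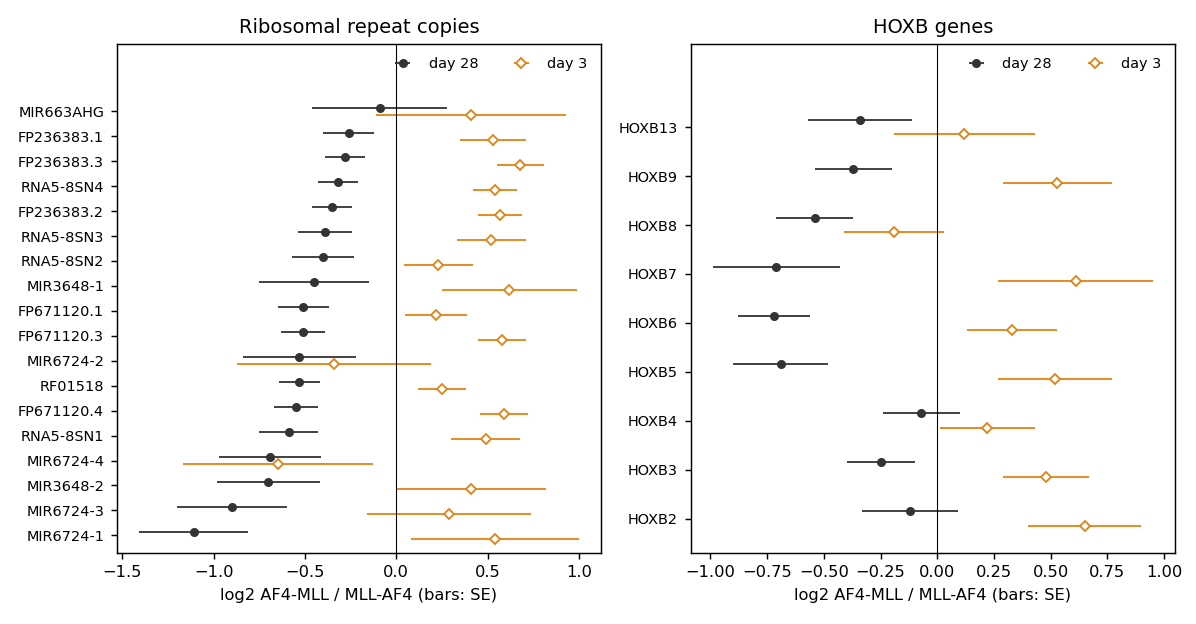
Log2 difference of AF4-MLL from MLL-AF4 cells (x axis, bars are SE) of the 18 tested ribosomal repeat copies and the 9 tested HOXB genes, on day 28 (filled circles) and day 3 (open diamonds). All 18 copies and all 9 HOXB genes were below 0 on day 28, and 16 and 8 of them above 0 on day 3.

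Groups of genes tied to the fusion proteins are given beside all genes tested, of which 0.0793% were called and 81.5% bounded within 2-fold. At an unadjusted p under 0.05, 4.38% of all genes were higher and 3.88% lower. Lists of at most 25 genes would rarely hold a called gene, so 0 called is no result about their members. Among 25 tested genes reported as MLL fusion targets, 0 were called and 0 were at an unadjusted p under 0.05, the median was 0.01, and 23 were bounded within 2-fold. MEIS1, a HOX cofactor, had 78.8, 51.9 and 62.1 against 65.9, 82.6 and 67.1 CPM (log2 −0.20). All 14 genes of the AFF family and super elongation complex were bounded within 2-fold, with AFF3 as the most different (log2 −0.44) and AFF4 at −0.20. Of the 23 genes of the KMT2 family, the COMPASS core, menin and LEDGF, KMT2A was the 1 called and 20 were bounded within 2-fold. CXXC1, the CpG-binding subunit of the SETD1 complexes, was at 0.53, PAXIP1 at −0.54 and KMT2D at −0.36, none with an adjusted p under 0.29. MEN1, which encodes menin, was at 0.04.

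Among 20 genes of P-TEFb control and the DOT1L complex, NELFE of the pausing factor NELF was at 0.61 and MEPCE, which caps 7SK RNA, at −0.45, with 0 called. Of these 20 genes, 16 were bounded within 2-fold. PKNOX2, a TALE homeobox gene, had 22.1, 17.7 and 17.4 CPM against 5.77, 10.6 and 10.7 CPM, so that all AF4-MLL libraries were above all MLL-AF4 libraries. Its log2 difference of 1.04 was not called (adjusted p = 0.16), was −0.80 on day 3 and changed between the days by the interaction test (adjusted p = 0.015). The other 10 tested TALE genes were not at an unadjusted p under 0.05, and 9 of all 11 were bounded within 2-fold.

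In the remaining lists 0 genes were called, and the shares at an unadjusted p under 0.05 can be read against 4.38% higher and 3.88% lower over all genes tested. Kidney development regulators had 0 higher and 1 lower of 15, WNT9B (log2 −0.88), and blood lineage genes 0 and 2 of 13, CEBPA (−0.66) and PAX5 (−0.75). Of 27 genes of ER chaperones and the unfolded protein response, 1 was higher and 3 were lower, among them ATF4 (−0.57) and ERN1 (−0.49). Cytosolic heat shock genes had 1 lower of 18, HSPH1 (−0.45), AP-1 and immediate early genes 1 higher of 20, KLF4 (0.52), and G1 cyclin and CDK genes 0 of 21. Nuclear genes for mitochondrial DNA replication had 2 higher and 1 lower of 15. They included TFAM, which packages that DNA (52.1, 58.6 and 56.5 against 44.5, 44.1 and 43.9 CPM, log2 0.34), and TOP1MT (−0.52). The 36 tested genes of the mitochondrial genome had a median of 0.03 and all were bounded within 2-fold, and their 21 tested nuclear copies had a median of 0.04, with 1 at an unadjusted p under 0.05.

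Cytosolic ribosomal protein genes had 1 higher and 9 lower of 81 at an unadjusted p under 0.05, with a median of −0.14. RPL13A had 7.16, 11.0 and 8.37 against 18.1, 13.4 and 22.4 CPM (log2 −0.94), and RPL38 had 25.4, 22.7 and 20.9 against 34.6, 43.0 and 29.5 CPM (−0.67). Both were separate between the groups, and neither was called (adjusted p = 0.23 and 0.19). Replication-dependent histone genes had 0 of 48 at that threshold. Zinc finger genes had 5 higher and 13 lower of 321, the 9 tested olfactory receptor genes 0, and the 3 tested protocadherin genes 0.

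More was resolved by position than by gene. Counts were summed over 309 blocks of about 50 neighbouring tested genes, which raises the counts behind each value, and 125 blocks passed the edgeR quasi-likelihood test (40.5%), 62 higher (20.1%) and 63 lower (20.4%) in AF4-MLL cells. The differences were small, from 0.08 to 0.40 in absolute log2 value, with a median SE of 0.034. Of the 21 called blocks beyond 0.2, 9 lie on chromosome 9.

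Chromosome 9 was the clearest of them. It took 3.332%, 3.195% and 3.375% of the nuclear counts in AF4-MLL cells and 2.836%, 2.854% and 2.901% in MLL-AF4 cells, with a wide gap between the groups. By limma on the log2 share this was a difference of 0.20 (SE 0.023, adjusted p = 6.6e-07), one of 7 called among 23 chromosomes (30.4%). With the 1% of genes of highest counts left out, or the named nuclear copies of mitochondrial DNA, 14 chromosomes were called. At the gene level, 132 of its 616 tested genes were higher and 9 lower at an unadjusted p under 0.05, with a median of 0.21.

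The difference was uneven along the chromosome. Blocks of this size do not locate where it began, since the block from PGM5P2 to IDNK alone spans chr9:41007011-83644123. With blocks of 25 genes, 20 of the 25 on chromosome 9 were called higher. The first 3 blocks, from WASHC1 to FRG1HP, stood at 0.01, −0.08 and 0.05, and the second of them was called lower (edgeR adjusted p = 0.046). The next 9 blocks, 462 genes from PGM5P2 to FAM157B (chr9:41007011-138272073), were all called higher, at 0.29, 0.20, 0.26, 0.40, 0.27, 0.27, 0.26, 0.35 and 0.24 in order. In the block of the highest value, from NIPSNAP3B to WHRN (chr9:104764129-114505473), 49 of 51 genes were above 0. Its summed level was 3054, 3004 and 3091 CPM against 2277, 2380 and 2228 CPM (log2 0.40, SE 0.034, adjusted p = 4.9e-17).

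In the 9 blocks between 41 of 52 and 49 of 51 genes were above 0, and the 4 genes named above were the ones called. The genes given next are among the leading ones of their blocks. ABCA1, a cholesterol exporter, had 31.3, 25.4 and 23.0 against 17.3, 17.9 and 8.06 CPM (log2 0.82). CNTRL and CDK5RAP2, both centrosome proteins, had log2 differences of 0.62 and 0.65, and DBH, which makes noradrenaline, 0.79. CARD9, an adaptor of innate immunity, had 67.1, 67.4 and 61.4 against 47.0, 49.6 and 40.3 CPM (0.50). The lysosomal protease CTSL (0.61) and EHMT1, a methyltransferase of lysine 9 on histone H3 (0.49), had unadjusted p of 0.0016 and 0.010. On the first part of the chromosome, MLLT3, a subunit of the super elongation complex, was at −0.30 and MOB3B at −0.69, with adjusted p of 0.67 and 0.49.

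**Figure D4:**
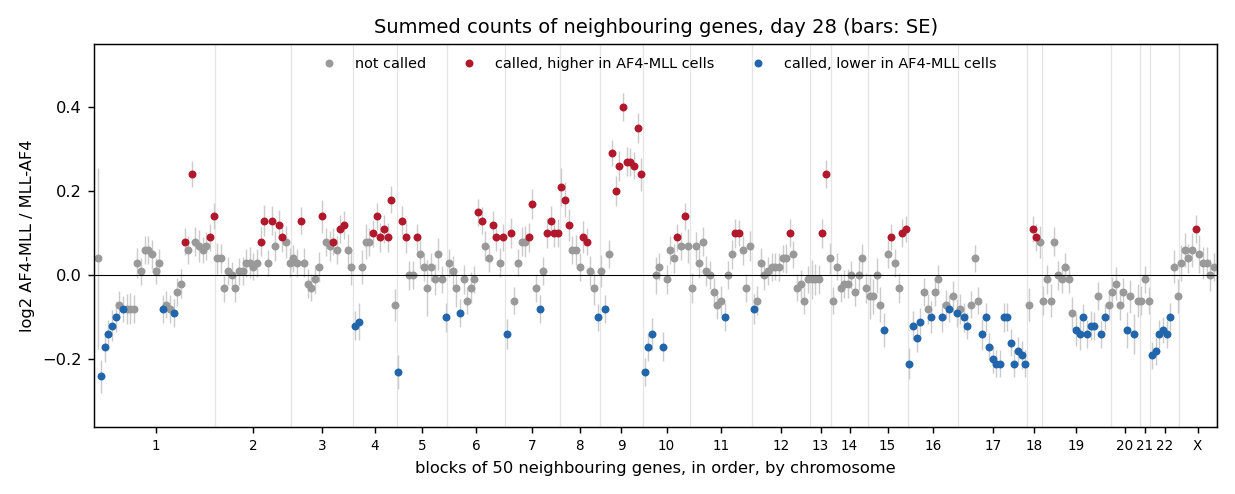
Log2 difference of AF4-MLL from MLL-AF4 cells on day 28 (y axis, bars are SE) of counts summed over blocks of about 50 neighbouring genes, in order along the chromosomes (x axis). Red points are called higher and blue points called lower in AF4-MLL cells, and the 9 called higher blocks of chromosome 9 run from 0.20 to 0.40.

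Chromosomes 17 and 22 went the other way along most of their length. Chromosome 17 took 5.277% ± 0.057 of the nuclear counts in AF4-MLL cells and 5.825% ± 0.026 in MLL-AF4 cells (log2 −0.14, limma adjusted p = 5.6e-06), and 105 of its 934 tested genes were lower and 3 higher at an unadjusted p under 0.05. A run of 13 called blocks, 640 genes from PHF12 to B3GNTL1 (chr17:28905250-83051770), had values from −0.21 to −0.10. It holds UBTF and the HOXB cluster, and beside them BRCA1 of DNA repair (33.9, 34.8 and 36.3 against 47.8, 48.5 and 48.3 CPM, log2 −0.46), PSMC3IP (−0.72), RPL27 (−0.49), TANC2 (−0.49), MAP2K6 (−0.65) and BIRC5 (−0.61). These 6 are among the leading genes of their blocks, and none was called.

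Chromosome 22 had shares of 2.073% and 2.283% (log2 −0.14, adjusted p = 1.9e-05), with 36 of 392 genes lower and 1 higher. Its first 6 blocks, 294 genes, ran from −0.19 to −0.10. XBP1, a transcription factor of the unfolded protein response, had 16.3, 20.4 and 20.2 against 28.0, 30.7 and 30.4 CPM (log2 −0.64). ATF4 of the integrated stress response had 31.3, 30.9 and 35.6 against 58.5, 43.0 and 44.8 CPM (−0.57), H1F0, a linker histone, was at −0.84 and PI4KA, a lipid kinase, at −0.48. These 4 are among the leading genes of their blocks, and none was called.

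Smaller called shares belonged to chromosomes 16 (log2 −0.10, adjusted p = 0.0012), 19 (−0.07, 0.0059), 20 (−0.07, 0.016) and 13 (0.07, 0.046). The chromosome 20 call was lost without replicate 2 of AF4-MLL cells (−0.05) or replicate 2 of MLL-AF4 cells (−0.06). That of chromosome 13 was lost when replicate 1 or 3 of AF4-MLL cells or replicate 2 or 3 of MLL-AF4 cells was left out. The named nuclear copies of mitochondrial DNA weigh on all shares: chromosome 1 took 27.17% in AF4-MLL cells with them and 11.269% without. Without these copies, a setting chosen after the data were seen, chromosome 20 was at −0.06 (limma adjusted p = 4e-04) and chromosome 13 at 0.08 (limma adjusted p = 8.6e-05). Called stretches also lay on chromosomes whose share was not called. The first 3 blocks of chromosome 10 (chr10:130088-43130351) had values from −0.23 to −0.14, with UPF2 of nonsense-mediated decay at −0.52 and TAF3 of TFIID at −0.69. The first block of chromosome 5 (chr5:92168-16936288) was at −0.23, with the telomerase gene TERT (3.91, 8.84 and 5.58 against 14.8, 9.48 and 12.5 CPM) at −0.92. Opposite to these stood a block of chromosome 1 from C1orf21 to NAV1 and, on chromosome 13, the block from DHX9P1 to LINC01232 that holds EDNRB, at 0.24 each.

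Day 3 separates these positions into differences present on both days and differences that lay on opposite sides. Of the 125 blocks called on day 28, 93 were also called on day 3, 15 with the same sign. The others had opposite signs, 40 lower on day 28 and higher on day 3, and 38 the other way. Of the 15 blocks with the same sign, 9 lie on chromosome 9, and 1 of these was lower on both days (RPS6 to DCTN3, −0.19 on day 3). The shares of chromosome 9 on day 3 were 3.722% and 3.322% (log2 0.16). Along its 9 higher blocks the day 3 values were −0.02, 0.24, 0.11, 0.11, 0.20, 0.36, 0.42, 0.45 and 0.38, so 8 of the 9 were called higher on both days, and the remaining block, from PGM5P2 to IDNK, was called on day 28 and was at −0.02 on day 3. With an offset on promoter GC content, described below, the day 3 calls of the blocks from NUTM2F to NIPSNAP3A (0.08, adjusted p = 0.064) and from NIPSNAP3B to WHRN (0.07, adjusted p = 0.15) were lost, which left 6 of the 9 called on both days. The first 3 blocks of chromosome 10 were at −0.26, −0.26 and −0.22 on day 3, on the same side as on day 28, and the first block of chromosome 5 was at −0.31. Chromosomes 17 and 22 were of the other kind, with shares that were higher in AF4-MLL cells on day 3 (log2 0.17 and 0.23). So were the remaining chromosomes with a called share. Chromosomes 16, 19 and 20 were higher on day 3 (log2 0.15, 0.24 and 0.11) and chromosome 13 was lower (−0.15).

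**Figure D5:**
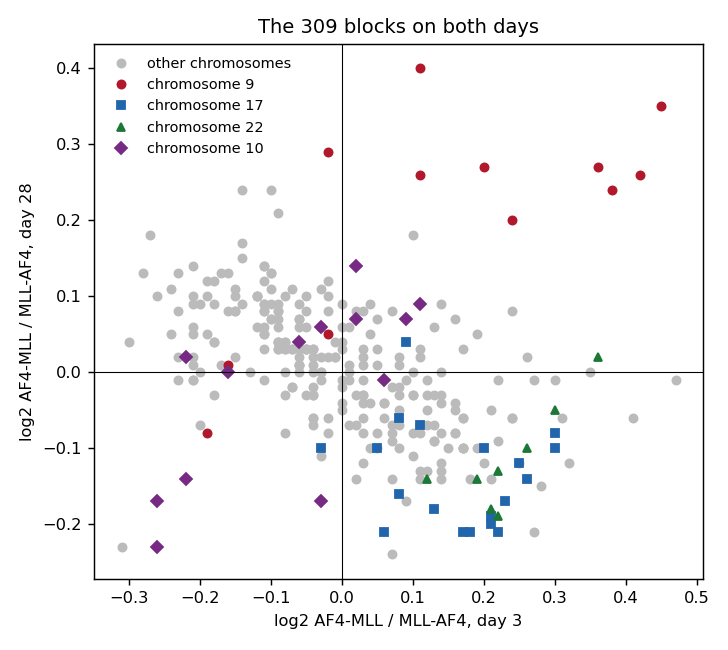
Log2 difference of AF4-MLL from MLL-AF4 cells of each of the 309 blocks on day 3 (x axis) and day 28 (y axis), with 4 chromosomes marked. Most blocks of chromosome 9 lie in the upper right, most of chromosomes 17 and 22 in the lower right, and the first blocks of chromosome 10 the lower left.

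The GC content of promoters varied along with the block values. Across the 298 blocks with promoter sequences, Spearman's rho between the mean promoter GC content of a block and its log2 difference was −0.29 on day 28 and 0.44 on day 3, as a description only, since blocks share libraries and neighbouring blocks are not independent. In the 75 blocks with the lowest GC content, 22 were called higher and 7 lower on day 28, and in the 75 with the highest, 5 higher and 25 lower. On day 3 these counts were 8 and 33, then 38 and 4. With a loess offset on block GC content, 112 of the 298 blocks were called, against 118 of the same blocks without it, and the 9 blocks of chromosome 9 remained called, at up to 0.43. All 13 blocks of the chromosome 17 run and all 6 first blocks of chromosome 22 were also still called lower, at −0.24 to −0.08 and −0.16 to −0.08. Other positions weakened. Called blocks beyond 0.2 fell from 20 to 14 of the 298, with 9 on chromosome 9 in both fits. The first block of chromosome 5 moved from −0.23 to −0.14. On chromosome 16, the blocks that begin at IFT140, SLX1B, ZNF319 and JPH3 lost their calls.

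Interaction tests show which genes differed between the constructs in another way on day 28 than on day 3. The difference between the days was called for 56 genes (0.317%), 35 upward (0.198%) and 21 downward (0.119%), with 1721 of 17660 genes at an unadjusted p under 0.05 (9.75%). DESeq2's Wald test, run on all 54425 genes without the low count filter, called 0, with 1176 at an unadjusted p under 0.05, so tool and filter changed together there. Beside the ribosomal copies, HOXB6, STEAP2, VPS13A and PKNOX2, the 56 genes called by edgeR included PRDM9, a methyltransferase of histone H3 that is usually confined to meiosis. PRDM9 had 135, 121 and 116 CPM against 97.2, 92.6 and 107 CPM on day 28 (log2 0.34), with all AF4-MLL libraries above, after −0.58 on day 3. ATG9A went from −0.65 to 0.70 and TSPEAR-AS2 from −0.85 to 0.58.

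The thresholds of the study's own selection, an unadjusted p under 0.05 with an absolute log2 difference over 1 and a mean count over 2, were applied to the edgeR p of the 17660 genes tested and took 96 genes (0.544%), 61 higher and 35 lower. With DESeq2, the study's tool, on all 54425 genes they took 198, and with edgeR 152 to 229 without 1 library. Among those of the 96 genes averaging 10 counts or more, the 5 widest differences on the higher side included ITGB1BP2 (log2 1.38), LINC01322 (1.33) and DNLZ, a mitochondrial chaperone partner on chromosome 9 (1.25). On the lower side they included CSGALNACT2, which elongates chondroitin sulphate (−1.24), CBLN1, a synaptic organiser (−1.24), and GMIP (−1.14). GMIP had 6.51, 6.63 and 4.88 against 6.59, 17.9 and 14.3 CPM, so its groups overlapped.

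Genes present in one population and absent from the other were also counted. Of 54388 nuclear genes, 26126 had reads in all 6 libraries and 2038 in none. There were 390 genes with at least 1 count in all AF4-MLL libraries and 0 in all MLL-AF4 libraries, and 175 the other way round, but none of the first kind had more than 13 counts in all and none of the second more than 10. LINC01095 held 5, 6 and 2 counts and OR1L8, an olfactory receptor gene, 2, 7 and 2 in AF4-MLL cells, and AL355802.2 held 1, 6 and 3 counts in MLL-AF4 cells. After thinning to the same nuclear depth the numbers were 300 and 267, and with a minimum of 2 counts in each library they were 39 and 7. A count of 0 in a single library allows an expected count of up to 3 there, and the limit is tighter where all 3 libraries of a group are at 0. The counts on the other side were also low, so absence was not resolved at this depth.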

How the data were processed

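ATAC-seq reads were counted per gene by the authors, whose deposited file gives raw counts of 54425 genes in 18 libraries. The submitters' processing notes name bcl2fastq, Bowtie2, HTSeq and build GRCh38. The region counted per gene, duplicate removal and any shift towards the transposase cut are not given in the sources used here. Of the entries, 116 merge several Ensembl identifiers under 1 symbol. Positions, gene order and sequences come from RefSeq tables of GRCh38.p14, which matched 15488 of the tested genes (87.7%). For AC010619.2 and most ribosomal copies no position was found.

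All 18 libraries were fitted together in 6 groups with edgeR 4.0.16 in R 4.3.3 (TMM, filterByExpr with a minimum count of 10 and a minimum total of 15, quasi-likelihood F test, Benjamini-Hochberg adjusted p under 0.05). The fit estimated a biological coefficient of variation of 7.48%. CPM uses TMM-scaled library sizes. Blocks of 50 neighbouring tested genes were summed and tested in the same way. Chromosome shares of nuclear counts were tested with limma 3.58.1. DESeq2 1.42.0 was an alternative. Replicates differed by more than sampling noise, with a chi-square per degree of freedom of 1.05 to 1.23, and each counts as 1 sample. The pipeline was tested on simulated data. Figures were drawn with matplotlib 3.10.9.

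Libraries, gene lists and tests were chosen with earlier results of these data known, so a list's pattern is no independent evidence. Genes were named by a rule: all called genes, the 5 nearest per direction, KMT2A, AFF1 and MIF, the 2 leading members per list, the 3 leading genes per called block, the leading genes of the study's selection and of the interaction, and those counted in 1 group only. Other ribosomal copies, HOX genes, KMT2D, PAXIP1, MEN1 and AFF4 were added after their values were seen. Some genes that the rule names, and some overlaps between genes, are not reported here.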

Additional observations from a re-analysis of the deposited data

Results flagged for a closer look

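For 14 genes the difference of AF4-MLL from MLL-AF4 cells on day 28 was unlike that on day 3, by the interaction term of the edgeR fit at an adjusted p under 0.05. They are the 5 leading genes per direction and the genes called on day 28 that also passed this test. The values below are the log2 difference of day 28 minus that of day 3. Of them, 6 are copies of the ribosomal repeat, which may share reads: FP671120.4 (−1.14), FP671120.3 (−1.10), FP236383.3 (−0.96), FP236383.2 (−0.91), RNA5-8SN4 (−0.85) and RF01518 (−0.78). HOXB6 on chromosome 17 stood at −1.04. Upward changes were found for TSPEAR-AS2 (1.43), ATG9A (1.36), STEAP2 (1.18), AC026202.3 (1.14), AC099548.2 (1.08), VPS13A (0.99) and PRDM9 (0.92). DESeq2's Wald test, run on all 54425 genes without the low count filter, called 0 for this term.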

How the results depend on the processing

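The 14 called genes became 2 with library size as the only scaling, 4 without a filter on low counts and 2 with DESeq2, which was run on all 54425 genes without that filter (821 at an unadjusted p under 0.05). Leaving out 1 library gave 2 to 10. The cause was not tested, beyond the fewer libraries of these fits. The 56 interaction genes became 11, 26 and 0 in the same 3 settings, and 20 to 49 without 1 library. The study's selection of 96 genes became 1 with a log2 threshold of 2, 4 with a minimum count of 30, 483 without a filter, 47 with the 6 libraries alone, 198 with DESeq2 and 152 to 229 without 1 library. Genes bounded within 2-fold went from 14392 of 17660 tested to 9418 of 9741 with a minimum count of 30, a smaller number but a larger share. Within 1.5-fold there were 5868 of 17660. Of the chromosomes, 14 were called in place of 7 both without the 1% of genes with the highest counts and without named nuclear copies of mitochondrial DNA, the latter chosen after seeing the data. The 125 blocks (40.5%) became 77 of 153 with blocks of 100 genes (50.3%) and 153 of 620 with blocks of 25 (24.7%), and the 9 higher blocks of chromosome 9 kept their calls in every fit on blocks of 50 genes.

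The 390 and 175 genes counted in 1 population only became 39 and 7 with at least 2 counts per library, the second became 267 at equal depth, and they ran from 673 to 1076 and from 362 to 568 without 1 library. AFF1 ran from −0.09 to 0.12 without 1 library, changing sign to −0.07 without replicate 3 of AF4-MLL cells and to −0.09 without replicate 1 of MLL-AF4 cells, and was not called in any setting. The numbers of the replicates did not pair the libraries, since deviations of same-numbered libraries correlated at −0.04 to 0.01 over genes. With the number as a replicate block, 12 genes, 48 interaction genes, 6 chromosomes and 119 blocks were called. Single genes were limited by depth, with a median SE of 0.25 on the log2 scale.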
